A study of Homo sapiens with 29 samples.

Results

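The genes described here encode proteins of the cell surface with which myoblasts hold on to each other, to the matrix around them and finally fuse. They are MYMK (older symbol TMEM8C), NCAM1, JAM2, JAM3, CDH15, CDH2, CAV3, ITGA7, ITGA5 and ITGB1, chosen by name with earlier results of these data known. These 10 genes are 10 of the 18432 genes with a tested probe, and they have 16 of the 58201 probes on the array. LHCN-M2 cells, a clonal line of human skeletal myoblasts immortalized with telomerase and CDK4, received ZNF148 siRNA or nontargeting siRNA by transfection, each at 20 nM. Cells were collected at 24 h (subconfluent), 48 h or 96 h (both confluent) in growth media, and at 48 h or 96 h in differentiation media. Each of the 10 groups of 1 siRNA, 1 hour and 1 media had 3 arrays, apart from the nontargeting siRNA group of 96 h in growth media with its 2. All groups had been transfected, and the study's methods place the change to differentiation media 2 days after transfection, so the same labelled hour in both media may not be the same time since transfection. The cells are 1 clone and carry both immortalizing transgenes in every group.

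Muscle fibers arise when myoblasts leave the cell cycle, line up, adhere and merge their membranes. MYMK (myomaker) is a membrane protein of muscle cells that is required for fusion itself. Cadherins (CDH15, M-cadherin, and CDH2, N-cadherin), the neural cell adhesion molecule NCAM1 and the junctional adhesion molecules JAM2 and JAM3 hold neighbouring cells together. Integrins are pairs of an α and a β chain that bind the matrix, and CAV3 (caveolin-3) is the muscle form of the protein that coats caveolae, the small pits of the plasma membrane.

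In growth media, ZNF148 siRNA raised NCAM1, CAV3, CDH15, JAM2 and JAM3 at 48 h and at 96 h, lowered ITGB1 at both times, and raised ITGA7 at 48 h. In differentiation media, NCAM1 and JAM2 were raised at both times, JAM3 and ITGA5 at 48 h and CAV3 at 96 h. At 24 h none of the 10 genes passed the threshold. MYMK was read by a pair of probes that gave different pictures. One rose by 4.54 to 5.06 on the log2 scale at 48 h and 96 h in growth media, and the other rose by 0.34 and 0.61, which is under the 2-fold threshold. In nontargeting siRNA cells, differentiation media raised CAV3 and CDH15 and lowered ITGB1 at both times, and in ZNF148 siRNA cells it moved none of the 10 genes past the threshold.

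Values are on the log2 scale of the authors' normalized matrix, so a difference of 1 is a 2-fold change, and levels of different probes are not compared. A gene was called changed when its probe had a Benjamini-Hochberg adjusted p under 0.05 over all tested probes in limma and changed more than 2-fold. Errors of group means are SDs, and errors of changes are standard errors of the fit. With RNA from whole cultures, fewer cells of a kind and less RNA per cell cannot be told apart.

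The targeted gene was checked first. ZNF148 was lower on every ZNF148 siRNA array than on every nontargeting siRNA array of the same time and media, by between 1.53 and 2.74 on the log2 scale over the 5 comparisons. Of the markers of muscle cells, DES, MYOD1 and MYF5 were well above background on all 29 arrays and PAX7 on 20. The epithelial markers CDH1 and EPCAM were well above background on 3 and 2 arrays, and of the fibroblast markers COL1A1, DCN and THY1 were so on all 29 and TCF21 on 3. On each array, between 41.6% and 56.5% of probes were well above background. The number of arrays limits the precision.

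Of the 48 h growth media arrays with nontargeting siRNA, replicate 1 stood apart from the other arrays of its group. It had 12.85 for NCAM1 against 8.66 and 8.95, 14.98 for CDH15 against 13.02 and 13.04, and 11.53 for the dimmer MYMK probe against 7.13 and 7.32. The muscle differentiation markers MYOG, MYH3, CKM and ACTA1, summed as signals, had a log2 level of 11.03 to 18.6 over the 3 arrays of this group. For ITGB1 (12.89 against 13.28 and 13.39) and ITGA5 (11.88 against 11.99 and 11.73) the array lay nearer to the others. Changes and counts that use this group are therefore also given from a fit of the other 28 arrays where a gene was called in either fit. All groups share an estimate of the spread, so this array also enters the errors of comparisons without its group. For some of these, adjusted p from the fit of 28 arrays is added.

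**Figure D1:**
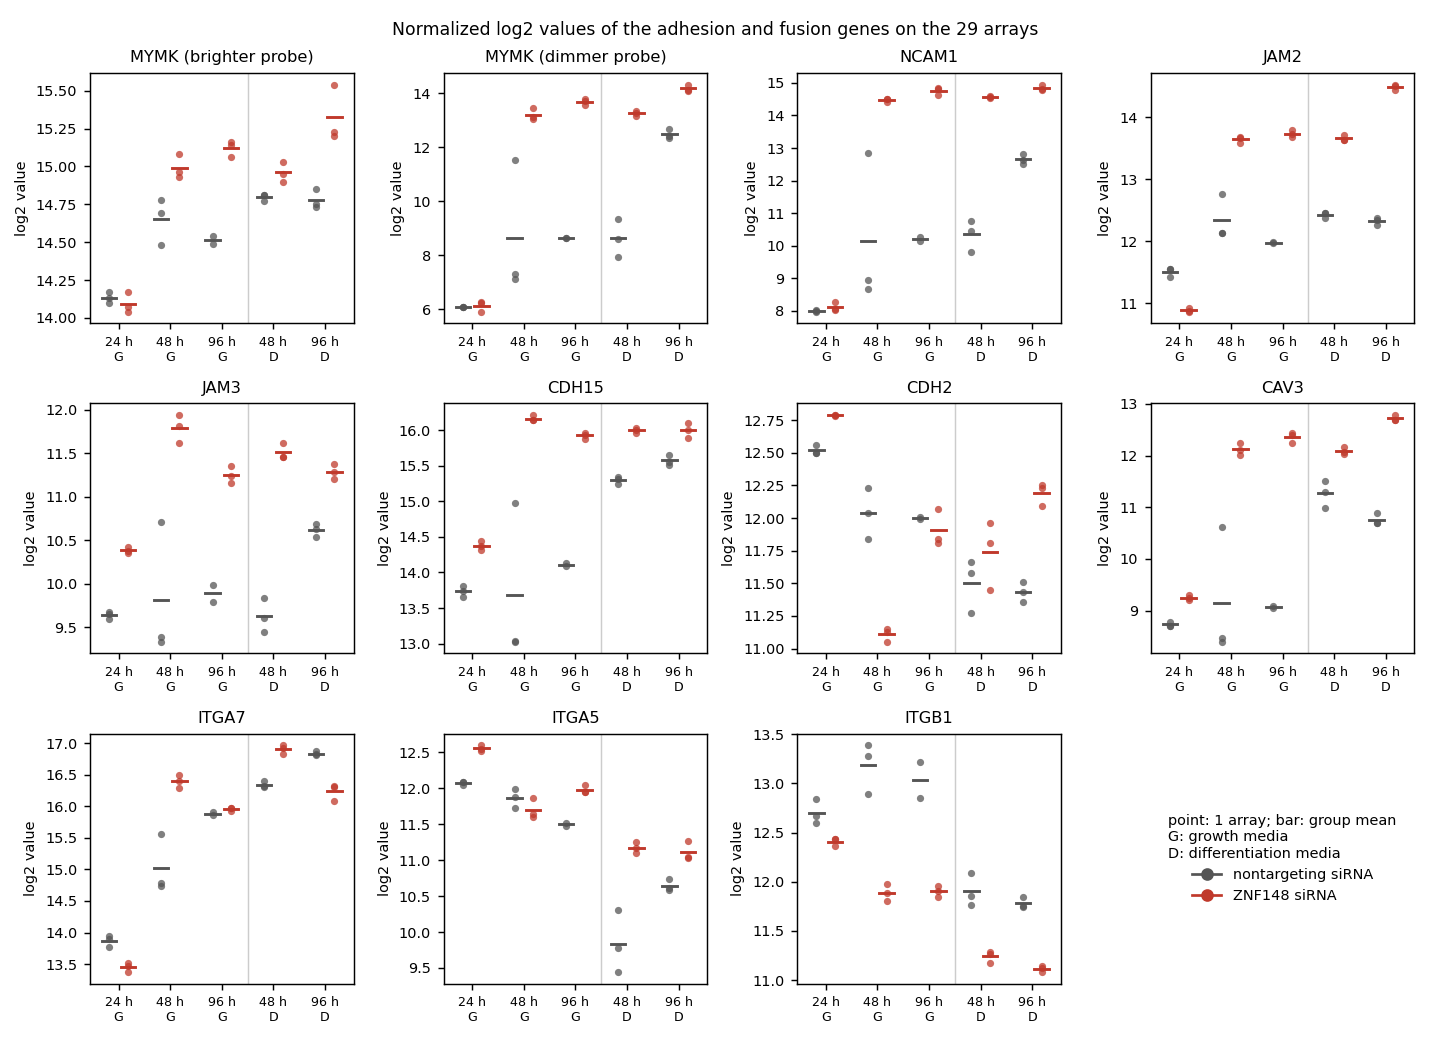
Normalized log2 values (y axis) of the 10 genes, with both MYMK probes, on each of the 29 arrays, by hour and media (x axis), with nontargeting siRNA in grey and ZNF148 siRNA in red; points are arrays and bars are group means. The NCAM1 points of ZNF148 siRNA at 48 h and 96 h lie between 14.41 and 14.95, above every nontargeting siRNA point, and the ITGB1 points of ZNF148 siRNA lie below those of nontargeting siRNA in each of the 5 pairs of groups.

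Of the 10 genes, 6 were called higher and 1 lower at 48 h in growth media, where 11.7% of all genes tested were called higher and 12.2% lower (23.9% in all). At 96 h 5 were called higher and 1 lower, where 12.3% and 12.4% of all genes were (24.7% in all). In differentiation media 4 were called higher and 0 lower at 48 h, where 15% and 17.2% of all genes were (32.3% in all), and 3 higher and 0 lower at 96 h, where 10.4% and 12.8% were (23.2% in all). In either direction, 4 of 10 and 3 of 10 were near the shares of all genes in differentiation media. No array of the ZNF148 siRNA group overlapped with the nontargeting siRNA group for 9 of the 10 genes at 24 h (55.4% of all genes), for 9 at 48 h and 9 at 96 h in growth media (62.7% and 74.9%), and for 9 and 10 at 48 h and 96 h in differentiation media (70% and 65.3%). At 24 h the count was 0 of 10 by limma, against 5.47% of all genes. At that time 7 of the 10 genes had an unadjusted p under 0.05, 4 had an adjusted p under 0.05 with changes under 2-fold, and 8 had an unadjusted p under 0.05 in the methods' t-test. Shares of all genes at these thresholds were not counted, so these counts are not set against any. Without the array that stood apart, adjusted p at 24 h was also under 0.05 for CDH15 (8.31e-08, limma), CAV3 (0.00037) and ITGB1 (0.0187), with changes under 2-fold. The median log2 change of the 10 genes was 0.2, 1.34 and 0.98 at 24 h, 48 h and 96 h in growth media, and 0.76 and 0.61 at 48 h and 96 h in differentiation media, beside medians of all genes between -0.06 and 0. Without the array that stood apart, 8 of the 10 genes were called at 48 h in growth media, with 27% of all genes called, since CDH2 also passed.

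**Figure D2:**
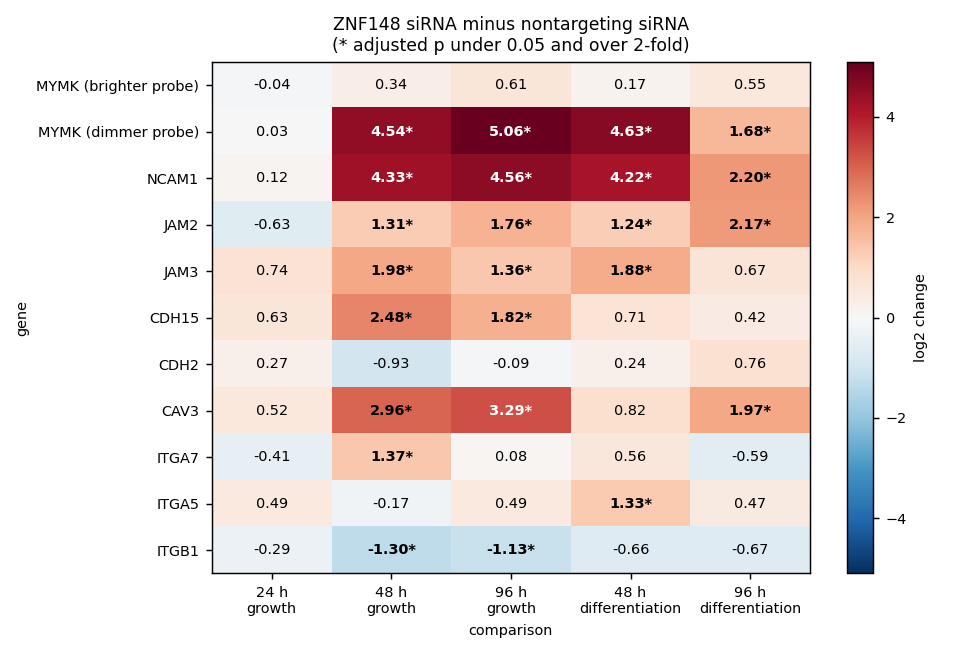
Log2 change with ZNF148 siRNA against nontargeting siRNA (colour and printed value) for the 10 genes and both MYMK probes (rows) in the 5 comparisons by hour and media (columns), with an asterisk where the adjusted p was under 0.05 and the change over 2-fold. NCAM1 and JAM2 carry an asterisk in the 4 comparisons after 24 h, and no gene does at 24 h.

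MYMK, the fusogen, had a dimmer and a brighter probe for the same RefSeq transcript, both well above background on all 29 arrays. On the dimmer probe, nontargeting siRNA cells had 6.11, 6.11 and 6.11 at 24 h in growth media and ZNF148 siRNA cells had 6.25, 5.91 and 6.27, which overlapped. At 48 h the nontargeting siRNA arrays had 11.53, 7.13 and 7.32, and the ZNF148 siRNA arrays had 13.03, 13.11 and 13.47. At 96 h the nontargeting siRNA arrays had 8.63 and 8.63, and the ZNF148 siRNA arrays had 13.79, 13.56 and 13.72. All ZNF148 siRNA arrays lay above all nontargeting siRNA arrays at both times, and the change was 4.54 ± 0.67 at 48 h (adjusted p = 7.16e-06, limma) and 5.06 ± 0.75 (adjusted p = 8.44e-06) at 96 h. Without the array that stood apart the change at 48 h was 5.97. With all arrays, its call was lost in the methods' t-test with Benjamini-Hochberg adjustment (adjusted p = 0.0858). Within slides it was 6.33, 1.58 and 5.70 at 48 h, the lowest on the slide that holds that array.

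In differentiation media the dimmer probe read 9.34, 8.60 and 7.94 with nontargeting siRNA and 13.27, 13.36 and 13.14 with ZNF148 siRNA at 48 h. By 96 h it read 12.36, 12.43 and 12.69 with nontargeting siRNA and 14.12, 14.32 and 14.09 with ZNF148 siRNA. The groups did not overlap at either time, and the nontargeting siRNA arrays were higher at 96 h than at 48 h. The change with ZNF148 siRNA was 4.63 ± 0.67 at 48 h (adjusted p = 3.78e-06, limma). At 96 h it was 1.68 ± 0.67 (adjusted p = 0.0437, limma). Leaving out any of the 6 arrays at 96 h gave adjusted p between 0.0667 and 0.0994. Without the array that stood apart, which is in another group, the change at 96 h was 1.68 ± 0.22 (adjusted p = 1.43e-06, limma). The effect at 96 h was smaller than that at 48 h by a difference of -2.95 (adjusted p = 0.02).

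The brighter probe moved much less. Its group means ranged from 14.09 to 15.32 over the 10 groups, against 6.11 to 14.18 for the dimmer probe. In growth media it changed by -0.04, 0.34 ± 0.08 and 0.61 ± 0.09 at the successive times. Its changes in differentiation media were 0.17 at 48 h and 0.55 ± 0.08 at 96 h. Adjusted p was under 0.05 at 48 h in growth media (0.00167) and at 96 h in growth (1.16e-05) and differentiation media (9.4e-06), with every ZNF148 siRNA array above every nontargeting siRNA array there, but each change was under 2-fold. The brighter probe is the one counted above for MYMK, since each gene is represented by whichever of its probes had the higher mean value. With the probes of each gene averaged, MYMK changed by 2.44, 2.83, 2.40 and 1.12 in the 4 comparisons after 24 h and passed the threshold in each. The size of the MYMK change therefore rests on the probe, and which probe follows the transcript more closely was not tested.

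NCAM1, an immunoglobulin-type adhesion protein that marks myoblasts and regenerating fibers, had the largest change of the 10 genes in each of the 4 comparisons after 24 h, leaving aside the dimmer MYMK probe. In growth media at 24 h it had 7.96, 8.02 and 7.98 with nontargeting siRNA and 8.25, 8.03 and 8.05 with ZNF148 siRNA. At 48 h it had 12.85, 8.66 and 8.95 with nontargeting siRNA and 14.52, 14.41 and 14.52 with ZNF148 siRNA. At 96 h it had 10.26 and 10.14 with nontargeting siRNA and 14.80, 14.85 and 14.64 with ZNF148 siRNA. The ZNF148 siRNA arrays were all higher, and the SDs of the ZNF148 siRNA groups at 48 h and 96 h were 0.07 and 0.11. The change was 0.12 ± 0.62 at 24 h (adjusted p = 0.962, limma), 4.33 ± 0.62 at 48 h (20.1-fold, adjusted p = 4.59e-06) and 4.56 ± 0.69 (23.7-fold, adjusted p = 1.1e-05) at 96 h. It was 5.68 at 48 h without the array that stood apart, and 5.86, 1.55 and 5.57 within the 3 slides. With all arrays, the call at 48 h was lost in the methods' t-test with Benjamini-Hochberg adjustment (adjusted p = 0.0827).

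In differentiation media NCAM1 had 10.77, 10.46 and 9.80 with nontargeting siRNA at 48 h and 14.53, 14.59 and 14.57 with ZNF148 siRNA. By 96 h nontargeting siRNA arrays had 12.64, 12.81 and 12.51, and ZNF148 siRNA arrays had 14.95, 14.82 and 14.78. The groups stayed apart at both times while the nontargeting siRNA level rose towards that of ZNF148 siRNA. The change was 4.22 ± 0.62 at 48 h (adjusted p = 4.32e-06, limma) and 2.20 ± 0.62 (adjusted p = 0.00529) at 96 h. The other NCAM1 probes changed in the same direction, by 3.22 and 3.80 at 48 h and by 2.85 and 4.65 at 96 h in growth media, and by 3.33 and 4.30 and by 0.89 and 2.17 in differentiation media. The change of 0.89 was not past the threshold.

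JAM2 and JAM3 are immunoglobulin-type proteins of cell junctions, and each can bind the other across neighbouring cells. JAM2 had 11.55, 11.43 and 11.55 with nontargeting siRNA at 24 h and 10.87, 10.92 and 10.86 with ZNF148 siRNA. At 48 h in growth media it had 12.76, 12.13 and 12.14 against 13.59, 13.69 and 13.67, and at 96 h it had 11.97 and 11.99 against 13.80, 13.69 and 13.73. Every ZNF148 siRNA array was lower than every nontargeting siRNA array at 24 h, and every one was higher at 48 h and 96 h. The change was -0.63 ± 0.11 at 24 h (adjusted p = 0.000129, limma, under 2-fold), 1.31 ± 0.11 at 48 h (adjusted p = 1.92e-09) and 1.76 ± 0.12 (adjusted p = 1.16e-10) at 96 h. It was 1.52 at 48 h without the array that stood apart. Of the other JAM2 probes, the first changed by -0.59, 1.25 and 1.44 at these times and the second by -0.51, 0.93 and 0.84.

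In differentiation media JAM2 had 12.38, 12.45 and 12.46 with nontargeting siRNA and 13.63, 13.72 and 13.64 with ZNF148 siRNA at 48 h. At 96 h it had 12.27, 12.34 and 12.37 against 14.53, 14.45 and 14.50, its highest values on any array. The change was 1.24 ± 0.11 (adjusted p = 1.63e-09, limma) and 2.17 ± 0.11 (adjusted p = 5.51e-13), so that JAM2 and NCAM1 were the members called in all 4 comparisons after 24 h.

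JAM3 had 9.59, 9.65 and 9.68 with nontargeting siRNA and 10.38, 10.35 and 10.42 with ZNF148 siRNA at 24 h. Later in growth media it had 10.71, 9.33 and 9.39 against 11.94, 11.62 and 11.81 at 48 h, and 9.99 and 9.79 against 11.35, 11.16 and 11.24 at 96 h. No ZNF148 siRNA array overlapped with the nontargeting siRNA arrays of its time. The change was 0.74 ± 0.22 at 24 h (adjusted p = 0.0167, limma, under 2-fold), 1.98 ± 0.22 at 48 h (adjusted p = 1.65e-07) and 1.36 ± 0.25 (adjusted p = 9.24e-05) at 96 h. It was 2.43 at 48 h without the array that stood apart. In differentiation media JAM3 had 9.84, 9.61 and 9.45 against 11.46, 11.62 and 11.46 at 48 h, a change of 1.88 ± 0.22 (adjusted p = 1.9e-07). At 96 h it had 10.63, 10.54 and 10.69 against 11.28, 11.37 and 11.20, a change of 0.67 ± 0.22 (adjusted p = 0.0158) that stayed under 2-fold. JAM2 and JAM3 thus moved in opposite directions at 24 h, each with an adjusted p under 0.05 and under 2-fold, and in the same direction later.

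CDH15, the cadherin of myoblasts and satellite cells, rose in growth media. It had 13.74, 13.81 and 13.66 with nontargeting siRNA at 24 h, and 14.31, 14.44 and 14.37 with ZNF148 siRNA. At 48 h it had 14.98, 13.02 and 13.04 against 16.22, 16.14 and 16.14, and at 96 h it had 14.09 and 14.13 against 15.97, 15.88 and 15.94. All ZNF148 siRNA arrays were higher at each time, with changes of 0.63 ± 0.30 at 24 h (adjusted p = 0.14, limma), 2.48 ± 0.30 at 48 h (adjusted p = 3.88e-07) and 1.82 ± 0.33 (adjusted p = 8.98e-05) at 96 h. Without the array that stood apart the change at 48 h was 3.13, and with it the call was lost in the methods' t-test with Benjamini-Hochberg adjustment (adjusted p = 0.0554). The changes within slides were 3.12, 1.16 and 3.18 at 48 h and 1.77 at 96 h, on the slide that holds both nontargeting siRNA arrays of that time.

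Nontargeting siRNA cells in differentiation media already had CDH15 values of 15.24, 15.31 and 15.34 at 48 h and 15.51, 15.56 and 15.66 at 96 h. With ZNF148 siRNA the values were 16.00, 16.04 and 15.97 at 48 h and 16.00, 16.10 and 15.90 at 96 h. These were still all higher, by 0.71 ± 0.30 (adjusted p = 0.0493, limma) and 0.42 ± 0.30 (adjusted p = 0.26), both under 2-fold. The highest CDH15 group mean, 16.17, and the means of the other ZNF148 siRNA groups after 24 h, 15.93, 16.00 and 16.00 lay close together, and neither change between media within ZNF148 siRNA passed the test (-0.16 and 0.07, adjusted p = 0.842 and 0.923, limma).

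CDH2, the N-cadherin that many mesenchymal cells share, did not follow CDH15. At 48 h in growth media it had 11.84, 12.04 and 12.23 with nontargeting siRNA and 11.15, 11.13 and 11.05 with ZNF148 siRNA, a change of -0.93 ± 0.12 (adjusted p = 8.5e-07, limma) just under 2-fold. Its other probe changed by -1.10 and passed, and without the array that stood apart the gene's change was -1.02, also past the threshold. At 96 h in growth media the groups overlapped, with a change of -0.09. In differentiation media at 96 h CDH2 had 11.43, 11.51 and 11.36 against 12.25, 12.09 and 12.23, a change of 0.76 ± 0.12 (adjusted p = 1.22e-05, under 2-fold). At 24 h and at 48 h in differentiation media the changes were 0.27 and 0.24, with adjusted p of 0.11 and 0.0977.

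CAV3, the muscle caveolin, had 8.71, 8.71 and 8.78 with nontargeting siRNA at 24 h and 9.20, 9.25 and 9.31 with ZNF148 siRNA. At 48 h in growth media it had 10.61, 8.47 and 8.39 against 12.10, 12.01 and 12.25, and at 96 h it had 9.06 and 9.08 against 12.43, 12.24 and 12.40. The ZNF148 siRNA arrays were all higher at each time. The change was 0.52 ± 0.34 at 24 h (adjusted p = 0.321, limma), 2.96 ± 0.34 at 48 h (7.80-fold, adjusted p = 2.12e-07) and 3.29 ± 0.38 (9.77-fold, adjusted p = 2.69e-07) at 96 h. It was 3.69 at 48 h without the array that stood apart, and within slides it was 3.78, 1.40 and 3.71 at 48 h and 3.17 at 96 h.

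In differentiation media CAV3 had 10.99, 11.30 and 11.51 with nontargeting siRNA at 48 h and 12.04, 12.16 and 12.07 with ZNF148 siRNA, a change of 0.82 ± 0.34 (adjusted p = 0.0464, limma) under 2-fold. With signals scaled to the 75th percentile of each array, this change was 1.04 and passed. At 96 h it had 10.69, 10.69 and 10.89 against 12.69, 12.79 and 12.68, a change of 1.97 ± 0.34 (adjusted p = 4.36e-05). The ZNF148 siRNA groups lay between 12.09 and 12.72 after 24 h in either media, above every nontargeting siRNA group.

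The promoters of CAV3, ITGA5 and ITGB1 are shown because CAV3 was called higher in 3 comparisons, ITGA5 in 1, and ITGB1 lower in 2. RefSeq promoter sequences of build GRCh38.p14 were given for 4 of the 10 genes, and the 250 bases before the start are printed 5′ to 3′ on the gene's strand, at chr3:8733552-8733801 (plus strand) for CAV3, chr12:54419267-54419516 (minus strand) for ITGA5 and chr10:32958231-32958480 (minus strand, the more upstream of 2 listed starts) for ITGB1. Capitals mark CANNTG, the E-box core that MYOD1 and related factors bind, and runs of 7 or more G on either strand, which appear as C where the run is on the other strand; these 2 motifs did not overlap.
CAV3: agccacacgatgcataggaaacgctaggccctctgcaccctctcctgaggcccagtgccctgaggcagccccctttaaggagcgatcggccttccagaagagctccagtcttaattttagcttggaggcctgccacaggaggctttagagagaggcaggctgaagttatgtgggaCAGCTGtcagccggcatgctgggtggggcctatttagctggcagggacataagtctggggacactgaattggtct
ITGA5: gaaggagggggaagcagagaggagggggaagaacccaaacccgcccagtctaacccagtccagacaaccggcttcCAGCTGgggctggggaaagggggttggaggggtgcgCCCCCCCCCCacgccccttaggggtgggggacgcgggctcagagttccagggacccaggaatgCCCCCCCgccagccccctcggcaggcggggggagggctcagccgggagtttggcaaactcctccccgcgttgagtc
ITGB1: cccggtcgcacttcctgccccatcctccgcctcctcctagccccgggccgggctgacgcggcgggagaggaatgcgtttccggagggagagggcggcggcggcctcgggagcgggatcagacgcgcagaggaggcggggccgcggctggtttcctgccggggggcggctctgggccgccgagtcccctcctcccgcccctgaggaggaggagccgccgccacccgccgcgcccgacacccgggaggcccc

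CAV3 held 1 CANNTG, in the form CAGCTG, which starts 75 bases before the start of the gene, and 1 match to the MEF2 consensus. ITGA5 held 1 CANNTG, also CAGCTG, 175 bases before the start, and 2 runs of G. ITGB1 held none of these. Among 35116 promoters of the same length, 61.8% held CANNTG on either strand, 14% CAGCTG, which is also counted as CANNTG, 4.87% a run of 7 or more G and 2.8% a MEF2 consensus. The CArG box (1.16% of promoters) and the G-rich box of the ENO3 promoter that ZNF148 is known to bind (2 promoters) were in none of the 3 sequences. These matches describe the letters in the window only.

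ITGA7 and ITGB1 form the laminin receptor of muscle, and ITGA5 with ITGB1 forms a fibronectin receptor. ITGB1 fell with ZNF148 siRNA. It had 12.67, 12.60 and 12.84 with nontargeting siRNA at 24 h and 12.43, 12.43 and 12.36 with ZNF148 siRNA. At 48 h in growth media it had 12.89, 13.28 and 13.39 against 11.80, 11.89 and 11.98, and at 96 h it had 12.85 and 13.22 against 11.91, 11.85 and 11.96. Every ZNF148 siRNA array was lower, and the change was -0.29 ± 0.11 at 24 h (adjusted p = 0.0608, limma), -1.30 ± 0.11 at 48 h (adjusted p = 4.08e-09) and -1.13 ± 0.12 (adjusted p = 1.5e-07) at 96 h. Without the array that stood apart, the change at 48 h was -1.45, and that at 24 h, -0.29, had adjusted p = 0.0187 (limma). Without nontargeting siRNA replicate 2 at 96 h, the change at that time was -0.95, under 2-fold, with adjusted p = 2.61e-05. In differentiation media ITGB1 had 12.09, 11.86 and 11.76 against 11.27, 11.29 and 11.17 at 48 h, and 11.85, 11.75 and 11.74 against 11.12, 11.08 and 11.14 at 96 h. These changes of -0.66 ± 0.11 and -0.67 ± 0.11 had adjusted p of 2.45e-05 and 3.06e-05 and were under 2-fold.

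ITGA7 had 13.77, 13.89 and 13.95 with nontargeting siRNA at 24 h and 13.37, 13.47 and 13.52 with ZNF148 siRNA, the lowest values of the series. ZNF148 siRNA changed it by 1.37 ± 0.14 at 48 h in growth media (adjusted p = 3.25e-08, limma), with 15.56, 14.78 and 14.74 against 16.49, 16.29 and 16.40. The array that stood apart was the highest of its group, and without it the change was 1.63. At 96 h in growth media ITGA7 had 15.91 and 15.86 against 15.92, 15.98 and 15.98, a change of 0.08 (adjusted p = 0.761). In differentiation media it had 16.31, 16.40 and 16.32 against 16.92, 16.83 and 16.97 at 48 h, and 16.81, 16.82 and 16.87 against 16.30, 16.09 and 16.32 at 96 h. The ZNF148 siRNA arrays were all higher at 48 h and all lower at 96 h. The changes were -0.41 at 24 h, 0.56 at 48 h and -0.59 at 96 h in differentiation media, each with adjusted p under 0.05 and under 2-fold. The ITGA7 effect in differentiation media thus changed sign, and that at 96 h minus that at 48 h was -1.16 (adjusted p = 6.09e-05, limma).

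ITGA5 passed the threshold in 1 comparison with ZNF148 siRNA. At 48 h in differentiation media it had 10.30, 9.78 and 9.44 with nontargeting siRNA, the lowest ITGA5 values of the series, and 11.25, 11.17 and 11.10 with ZNF148 siRNA, a change of 1.33 ± 0.14 (adjusted p = 2.35e-08, limma). At 24 h it had 12.08, 12.04 and 12.09 against 12.52, 12.55 and 12.60, and at 48 h in growth media it had 11.88, 11.99 and 11.73 against 11.64, 11.60 and 11.86. The ZNF148 siRNA arrays were all higher at 24 h, and the groups overlapped at 48 h. The changes there and at 96 h were 0.49, -0.17 and 0.49 in growth media and 0.47 at 96 h in differentiation media, of which all but that of -0.17 had adjusted p under 0.05.

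After 24 h the muscle differentiation markers were higher with ZNF148 siRNA, as NCAM1 and JAM2 were, while ITGB1 was lower and other members varied. The summed signal of MYOG, MYH3, CKM and ACTA1 had a log2 level of 6.53 to 6.84 with nontargeting siRNA and 6.61 to 6.71 with ZNF148 siRNA at 24 h, where 0 to 3 of the 4 were well above background. In growth media it was 11.03 to 18.6 against 19.55 to 19.61 at 48 h and 13.93 to 13.98 against 19.36 to 19.43 at 96 h. In differentiation media it was 13.18 to 15.39 against 19.76 to 19.77 at 48 h and 17.71 to 17.86 against 19.69 to 19.77 at 96 h, and all 4 were well above background on every array after 24 h. The fibroblast markers, 6 genes with 5 or 6 well above background on each array, had a summed level of 15.94 to 17.4 over all groups. In differentiation media it was 17.05 to 17.22 with nontargeting siRNA against 15.94 to 16.02 with ZNF148 siRNA at 48 h. At 96 h there it was 16.95 to 17.03 against 16.29 to 16.3. In growth media it was 16.22 to 16.26 against 16.47 to 16.48 at 24 h. It was 16.53 to 16.73 against 16.79 to 16.91 at 48 h and 17.24 to 17.4 against 17.05 to 17.14 at 96 h. The summed level of the 4 endothelial markers was 9.1 to 9.58 with nontargeting siRNA against 7.49 to 7.77 with ZNF148 siRNA in growth media at 48 h and 96 h. That of the 3 tested immune markers (PTPRC, CD14 and CD3E) was 10.51 to 11.81 with nontargeting siRNA in growth media at 48 h and 96 h and 7.35 to 8.84 elsewhere. The part of these markers in the changes of the adhesion genes was not tested.

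Differentiation media alone moved the adhesion genes of nontargeting siRNA cells. At 48 h CAV3 (2.11 ± 0.34, adjusted p = 2.3e-05, limma), CDH15 (1.61 ± 0.30, adjusted p = 0.000117) and ITGA7 (1.32 ± 0.14, adjusted p = 6.12e-08) were higher than in growth media, and ITGA5 (-2.03 ± 0.14, adjusted p = 8.51e-11) and ITGB1 (-1.28 ± 0.11, adjusted p = 4.48e-09) were lower. These were 3 higher and 2 lower of 10, where 7.7% of all genes were called higher and 8.17% lower (15.9% in all). The CAV3 and CDH15 calls were lost in a fit of only the 6 arrays compared (adjusted p = 0.0669 and 0.0989). Without the array that stood apart 6 of 10 were called, with 17.6% of all genes called, since NCAM1 changed by 1.54 in place of 0.19. In that fit CAV3 changed by 2.84, CDH15 by 2.26, ITGA7 by 1.58, ITGA5 by -2.02 and ITGB1 by -1.43.

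At 96 h CAV3 (1.69 ± 0.38, adjusted p = 0.00121, limma), CDH15 (1.47 ± 0.33, adjusted p = 0.00125) and NCAM1 (2.45 ± 0.69, adjusted p = 0.00794) were higher in differentiation media and ITGB1 (-1.26 ± 0.12, adjusted p = 6.14e-08) was lower. These were 4 of 10, where 6.79% of all genes were called higher and 8.27% lower (15.1% in all). The NCAM1 call was lost with the slide as a block (2.11, adjusted p = 0.0528) and without replicate 2 of the nontargeting siRNA arrays in growth media (adjusted p = 0.0527). The dimmer MYMK probe changed by -0.04 at 48 h (1.40 without the array that stood apart) and by 3.86 ± 0.75 at 96 h (adjusted p = 0.000312), and the brighter one by 0.14 and 0.26.

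With ZNF148 siRNA, 0 of the 10 genes were called between the media at 48 h or at 96 h by limma, where 3.96% and 6.4% of all genes were called. At an unadjusted p under 0.05 there were 4 and 5 genes, and 5 and 6 by the methods' t-test. The shares of all genes at that threshold were not counted. ITGB1 was lower in differentiation media on every ZNF148 siRNA array, by -0.65 (adjusted p = 0.000298) at 48 h and -0.79 (adjusted p = 1.63e-05) at 96 h, and ITGA5 by -0.53 and -0.87. The changes of NCAM1 were 0.08 and 0.09, those of CAV3 -0.03 and 0.36 and those of CDH15 -0.16 and 0.07, none with an adjusted p under 0.05.

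**Figure D3:**
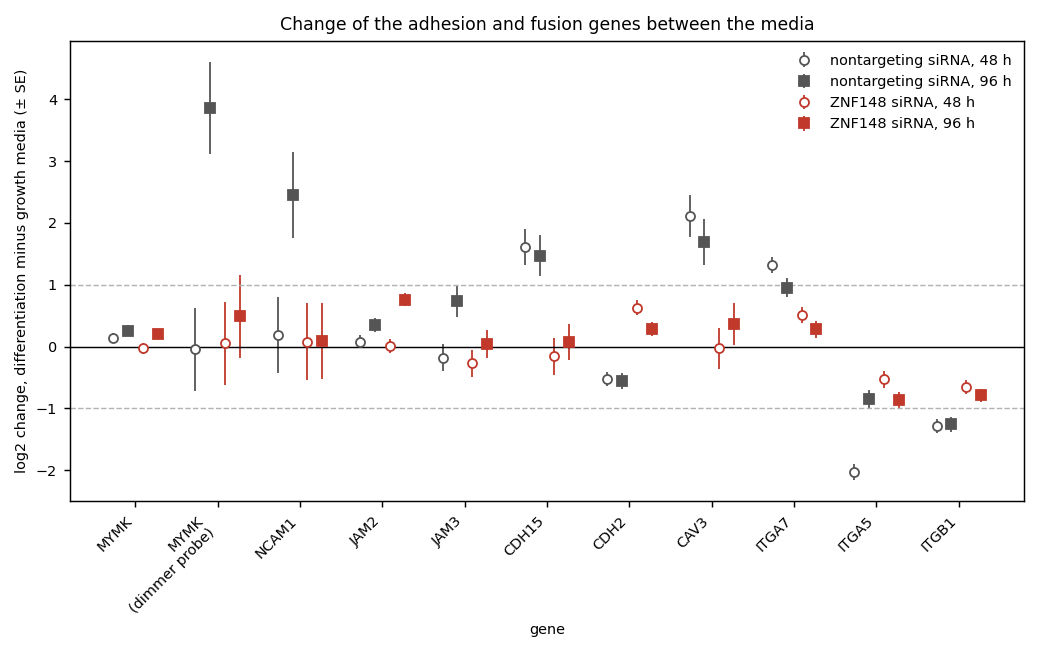
Log2 change between differentiation and growth media (y axis, with standard errors) for the 10 genes and the dimmer MYMK probe (x axis), for nontargeting siRNA in grey and ZNF148 siRNA in red, at 48 h (open circles) and 96 h (filled squares); dashed lines mark 2-fold. The grey points of CAV3, CDH15 and ITGB1 lie beyond the dashed lines at both times and no red point does.

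Whether the effect of ZNF148 siRNA differed between media was tested directly. At 48 h it was smaller in differentiation than in growth media for CDH15 (difference -1.78 ± 0.42, adjusted p = 0.00199, limma) and CAV3 (-2.14 ± 0.48, adjusted p = 0.0012), and higher for CDH2 (1.16, adjusted p = 8.38e-06) and ITGA5 (1.5, adjusted p = 2.35e-06). These were 4 of 10 genes, with 17.1% of all genes called. At 96 h CDH15 passed (-1.40, adjusted p = 0.0245), 1 of 10 with 12.4% of all genes called, and with the slide as a block its adjusted p was 0.0616. For NCAM1 the difference was -0.11 (adjusted p = 0.958) at 48 h and -2.37 (adjusted p = 0.0707) at 96 h, and without the array that stood apart it was -1.46 and -2.37 and passed at both. In that fit 6 of 10 genes were called at 48 h, with 18.4% of all genes called, as ITGA7 (-1.07, adjusted p = 4.58e-08, limma) passed too and CDH15 (-2.43), CAV3 (-2.87), CDH2 (1.26) and ITGA5 (1.49) still did. At 96 h 3 of 10 were called, with 13.7% of all genes called, as CAV3 (-1.32, adjusted p = 7.69e-07) passed too. The CAV3 difference at 96 h also passed with array weights (adjusted p = 0.000259), a stricter filter (0.0487) and averaged probes (0.0489). These differences use the same arrays as the changes given above.

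Between 24 h and 48 h in growth media the effect differed for 8 of 10 genes, with 20.5% of all genes called: higher at 48 h for NCAM1 (4.21), CAV3 (2.44), JAM2 (1.93), CDH15 (1.85), ITGA7 (1.78) and JAM3 (1.24), and lower for CDH2 (-1.19) and ITGB1 (-1). Without the array that stood apart the same 8 genes were called, with 23.6% of all genes called, and the differences of NCAM1, CAV3 and CDH15 were 5.56, 3.17 and 2.5. Between 24 h and 96 h it differed for NCAM1 (4.44), CAV3 (2.77), JAM2 (2.39) and CDH15 (1.19), 4 of 10 with 22.7% of all genes called, and the same 4 were called without that array, with 23% of all genes called. All arrays at 24 h were on 1 slide, from subconfluent cells, and the others on 3 further slides from confluent cells, so time, confluence and slide cannot be told apart in these differences. Between 48 h and 96 h in growth media ITGA7 differed (-1.29, adjusted p = 0.000179, limma), 1 of 10 with 5% of all genes called. In the fit of 28 arrays this became 4 of 10, with 6.94% of all genes called: ITGA7 (-1.56), CDH15 (-1.31, adjusted p = 6.53e-09), NCAM1 (-1.11, adjusted p = 0.0033) and JAM3 (-1.07, adjusted p = 2.71e-05). In differentiation media JAM3 (-1.21, adjusted p = 0.00421) and ITGA7 (-1.16) differed, 2 of 10 with 16.7% of all genes called. In that fit NCAM1 (-2.03, adjusted p = 3.12e-07) and CAV3 (1.15, adjusted p = 1.24e-06) passed too, 4 of 10 with 17.8% of all genes called, although this difference uses none of the group of that array.

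Further genes of adhesion and fusion were taken from a list of 90 genes, 88 of which had a tested probe; MYMX, the partner of MYMK in fusion, had no probe named by accession. At 24 h 3 rose and 1 fell, against 5.47% of all genes called: EHD1 (1.29, adjusted p = 1.4e-07, limma), a recycling protein of membranes needed for myoblast fusion, CDH4 (1.05, adjusted p = 0.049), VCAM1 (1.36) and, falling, RND3 (-1.19, adjusted p = 3.4e-08), a regulator of the actin skeleton. At 48 h in growth media 18 rose and 13 fell, at 96 h 15 rose and 12 fell, and in differentiation media 21 rose and 17 fell at 48 h and 15 rose and 14 fell at 96 h. These were 35.2%, 30.7%, 43.2% and 33% of the 88 genes, beside 23.9%, 24.7%, 32.3% and 23.2% of all genes. Their median changes lay between -0.2 and 0.05. VCAM1, higher at 24 h, was called lower at 48 h (-1.67) and at 96 h in differentiation media. CDH4, also higher at 24 h, was called lower at 48 h in growth media.

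In the group of fusogen and membrane remodelling, TMEM182, a membrane protein of muscle, rose by 3.74, 4.46, 4.65 and 4.27 in the 4 comparisons after 24 h, all called. DYSF (dysferlin, a protein of membrane repair) and BIN1 (a protein that bends membranes into tubules) rose at 48 h and 96 h in growth media and at 48 h in differentiation media, and at 96 h in differentiation media their changes of 0.70 and 0.31 were not past the threshold. ANXA1, a phospholipid-binding annexin, fell by -1.57 at 48 h in growth media and by -1.22 at 48 h in differentiation media.

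Among the integrins, their ligands and tetraspanins, ITGB1BP2 (melusin), a muscle protein that binds the tail of ITGB1, had the largest rises, of 5.71 ± 0.95 at 48 h and 5.15 ± 1.06 at 96 h in growth media and 6.06 ± 0.95 and 2.79 ± 0.95 in differentiation media. ITGA6 rose by 4.41 at 48 h in differentiation media, and ITGA1 and ITGA6 were called higher in all 4 comparisons after 24 h. Other integrin chains fell. ITGA3 fell by -2.12 at 48 h in differentiation media and was called lower at 48 h and 96 h in growth media. ITGB5 was called lower at 48 h and 96 h in differentiation media. CD9, a tetraspanin, fell by -1.88 at 48 h in growth media, and CD82 fell by -1.57 at 96 h in growth media and by -2.02 and -2.27 in differentiation media. FN1 (fibronectin), the ligand of ITGA5 and ITGB1, was called lower in all 4, by -1.51 at 96 h in differentiation media. In this group 4 rose and 4 fell of 16 at 48 h in growth media, where 11.7% of all genes rose and 12.2% fell.

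Among the 11 immunoglobulin-type proteins, MCAM rose by 3.44 at 48 h and 5.01 at 96 h in growth media and by 5.59 and 3.47 in differentiation media. PTGFRN, a partner of the tetraspanins, fell by -1.62 at 96 h in growth media and by -3.57 and -2.10 in differentiation media. ALCAM fell by -1.77 at 48 h in growth media. Of the 9 caveolae and Popeye proteins, 3 rose and 3 fell at 48 h in growth media, where 11.7% of all genes rose and 12.2% fell. CAVIN4, the muscle cavin, rose by 5.05 there and by 5.15 at 48 h in differentiation media, while CAV1, the caveolin of most other cells, fell by -1.62 and -2.04 and CAVIN2 fell by -2.29 at 48 h and -2.95 at 96 h in growth media. CAV1 fell where CAV3 rose at 48 h and 96 h in growth media. In differentiation media the 2 calls did not coincide. CAV1 was called lower at 48 h only and CAV3 higher at 96 h only.

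Of the 10 cadherins, catenins and cadherin partners, CTNND1 (p120 catenin) fell by -1.43 at 96 h in growth media and by -2.17 at 96 h in differentiation media, where JUP (plakoglobin) rose by 2.89. Of the 12 focal adhesion proteins none fell in any of the 5 comparisons, where 12.2% to 17.2% of all genes were called lower after 24 h. In growth media 1 rose at 48 h (8.33%, beside 23.9% of all genes called in either direction) and 1 at 96 h (8.33%, beside 24.7%). In differentiation media 4 rose at 48 h (33.3%, beside 32.3%) and 2 at 96 h (16.7%, beside 23.2%). LIMS2 rose by 3.85 and 4.48 at 48 h and 96 h in growth media. Of the 20 tested genes of actin remodelling and fusion signalling, 4 were called at 48 h (20%, beside 23.9% of all genes) and 3 at 96 h in growth media (15%, beside 24.7%), and STAB2 rose by 2.87 at 96 h in differentiation media.

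**Figure D4:**
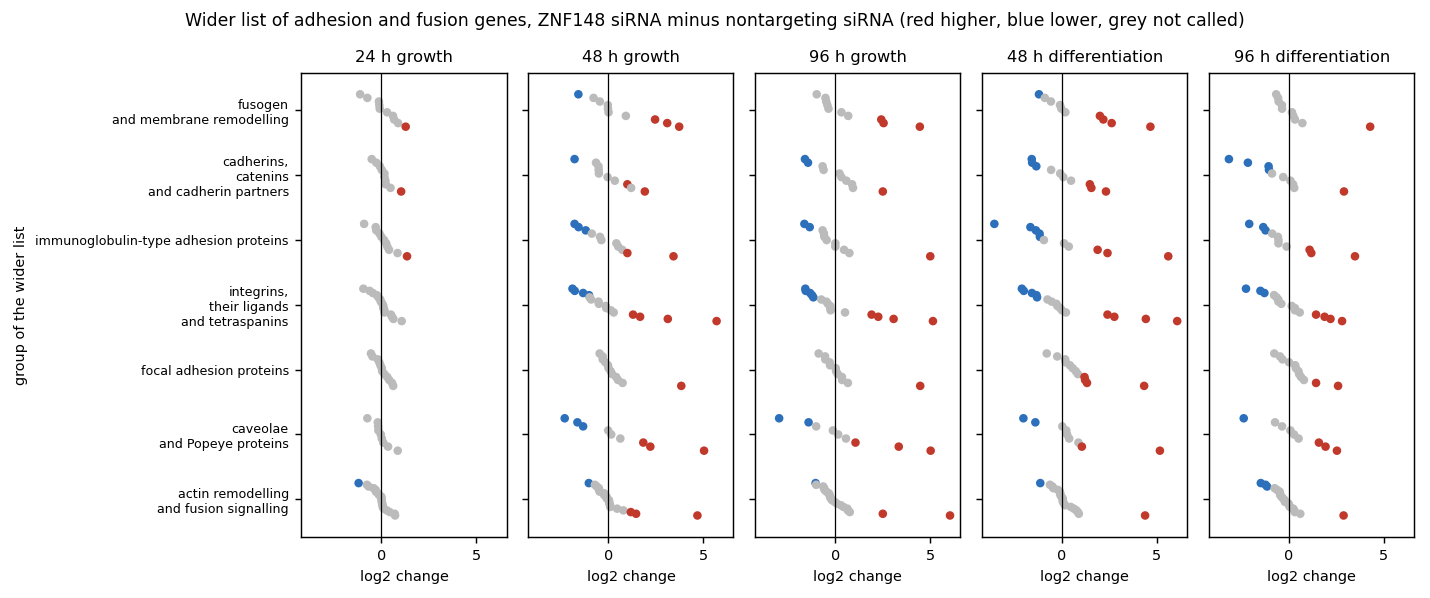
Log2 change with ZNF148 siRNA (x axis) of the 88 tested genes of the wider list in 7 groups by role (y axis), 1 panel for each of the 5 comparisons; red points were called higher, blue lower, and grey were not called. At 24 h 4 points are coloured, and at 48 h in differentiation media 38 are.

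Over the 10 group means, the correlations between pairs of the 10 genes ran from -0.91 to 0.96. CAV3 went with CDH15 and JAM2 with the brighter MYMK probe (both Pearson r = 0.96), and NCAM1 with JAM2 (r = 0.94), CAV3 (r = 0.92), CDH15 (r = 0.90) and JAM3 (r = 0.87), while ITGB1 ran opposite to CDH15 (r = -0.91) and CAV3 (r = -0.89), and CDH2 opposite to ITGA7 (r = -0.84). Of 13962 genes whose group means ranged over more than 1, those nearest to NCAM1 were TRIM54 (r = 0.998), TNNC2 (r = 0.998) and MEF2C (r = 0.997). Nearest to CAV3 were ZNF302 (r = 0.993), RBMS3-AS3 and NDRG2, to CDH15 TSPAN14 (r = 0.983), COG2 and RBM24, to JAM2 REEP2 (r = 0.992), CD4 and LINC00957, and to JAM3 DR1 (r = 0.984), FEM1A and MDN1. For ITGB1 they were STMN3 (r = 0.984), CA12 and NRROS, for ITGA7 GGPS1 (r = 0.980), QTMAN and PNMA8A, for ITGA5 IRAK1 (r = 0.973), EVA1A and PAQR4, and for CDH2 INTS7 (r = 0.935), SLC37A4 and EPB41L4B. The dimmer MYMK probe was nearest to LINC03013, MYOM3 (both r = 0.993) and TNNI2 (r = 0.992), and the brighter one to CYP51A1-AS1 (r = 0.989), TAMALIN and CTAG2. These values describe 10 groups that share siRNA, hour and media, and carry no p.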

How the data were processed

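RNA of LHCN-M2 cells was hybridized to 29 1-colour Agilent arrays in 10 groups, given by the labels. The authors read the arrays with Agilent Feature Extraction 10.7.3.1 and deposited linear intensities with the background of every spot already subtracted, and flags for spots well above background. They also deposited a matrix of log2 values, which their methods describe as quantile-normalized over all samples after background subtraction and log transformation, and whose columns had the same distribution. Each of its 29 columns matched its own array best (correlation across probes at least 0.9952). These log2 values are the main values here. No spot was saturated. RefSeq accessions in the array files named 31104 probes of 22439 genes. Of 14 array headers that name a build all name hg19, and 15 name none.

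Probes that 2 or more arrays showed well above background, 38839 in number, were fitted in limma 3.58.1 (R 4.3.3, with the data.table package, version 1.17.8) with 10 group means (lmFit and eBayes), with two-sided tests and Benjamini-Hochberg adjustment over all of them. Differences between effects were contrasts of contrasts in the same fit. Each gene was represented by whichever tested probe had the highest mean value. Labels call the arrays of a group biological replicates without naming separate cultures, so p-values measure the spread between these arrays. Named are the 10 genes and the 3 nearest genes by correlation. From the wider list, the 5 largest rises and falls per ZNF148 siRNA comparison are named. These were past the threshold and well above background on every array compared. DYSF, BIN1, MYMX, ITGA1 and ITGB5 were named after their values were seen. So were the results of VCAM1, CDH4, ITGA3, FN1, ITGA6 and ANXA1 outside that rule, such as VCAM1 at 24 h. The genes and lists were chosen with earlier results of these data known. Alternatives were the scanner signals quantile-normalized, scaling to the 75th percentile, normexp (offset 50), other filters, a fit of only the arrays compared, a trended or robust variance, weights for arrays, a replicate block, a slide block (fixed or random), the methods' t-test, no fold threshold, averaged probes and leaving out each array. The replicate numbers did not pair the arrays across groups (correlation of deviations from -0.16 to 0.123), so no block was used. The markers CD68, KRT5, KRT14, PLIN1 and FABP4 had no tested probe.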

Additional observations from a re-analysis of the deposited data

Results flagged for a closer look

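The effect of ZNF148 siRNA on several of the genes differed between hours or media in a test of the difference itself (limma). In growth media the effect at 48 h minus that at 24 h was 4.51 for the dimmer MYMK probe (adjusted p = 0.000694), 4.21 for NCAM1, 2.44 for CAV3, 1.93 for JAM2, 1.85 for CDH15, 1.78 for ITGA7, 1.24 for JAM3, -1 for ITGB1 and -1.19 for CDH2. The ITGB1 value was -0.99 with normexp and -0.98 with scanner signals quantile-normalized, under 2-fold. The effect at 96 h minus that at 24 h was 5.03 for the dimmer MYMK probe (adjusted p = 0.000397), 4.44 for NCAM1, 2.77 for CAV3, 2.39 for JAM2 and 1.19 for CDH15. Slide and hour cannot be told apart in these differences.

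The effect at 96 h minus that at 48 h was -1.29 for ITGA7 in growth media, and -2.95 for the dimmer MYMK probe, -1.21 for JAM3 and -1.16 for ITGA7 in differentiation media. The effect in differentiation media minus that in growth media at 48 h was -2.14 for CAV3, -1.78 for CDH15, 1.16 for CDH2 and 1.5 for ITGA5, and at 96 h it was -3.38 for the dimmer MYMK probe (adjusted p = 0.0171) and -1.40 for CDH15. With the slide as a block the adjusted p was 0.0599 for the former, 0.0616 for the latter and 0.0569 for CDH15 at 96 h minus 24 h.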

How the results depend on the processing

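Of 2125 values of the genes' changes under alternatives, 2061 kept their side of the threshold without a reversal, 18 lost the call, 43 gained it and 3 reversed. Among the 2061, 30 changed sign with no adjusted p under 0.05. Of 852 values of differences between effects, 802 kept their side without a reversal, 8 lost the call, 39 gained it and 3 reversed. Among the 802, 16 changed sign with no adjusted p under 0.05. Without replicate 1 of the 48 h growth media group with nontargeting siRNA, 4 values reversed: the change between media at 48 h in nontargeting siRNA cells for JAM3 (0.28, and from -0.42 to 0.28 over the arrays left out) and the dimmer MYMK probe (1.40, and from -0.80 to 1.40), the difference between 96 h and 48 h in growth media for NCAM1 (-1.11), and that between media at 48 h for the dimmer MYMK probe (-1.34). With array weights, the change of that probe between media was 0.91, and with averaged probes the MYMK difference between 96 h and 48 h in differentiation media was -1.28. The cause was not tested.

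Without a fold threshold, 4, 8 and 9 of the 10 genes were called with ZNF148 siRNA at 24 h and at 48 h and 96 h in differentiation media, 10 between media at 96 h with nontargeting siRNA, and 4 and 3 with ZNF148 siRNA. Of the wider list 30, 63 and 67 were then called at 24 h, 48 h and 96 h in growth media and 62 and 69 in differentiation media. The share of all genes called without a fold threshold was not counted, so these counts cannot be set against it. With normexp 2 of the wider list were called at 24 h. Between media at 48 h with nontargeting siRNA, 3 of the 10 genes were called with only the arrays compared and 3 by the methods' t-test with Benjamini-Hochberg adjustment. Leaving out each array gave 7 to 8 and 5 to 6 of the 10 genes at 48 h and 96 h in growth media, 0 at 24 h, 4 and 3 in differentiation media, 5 to 6 and 3 to 4 between media with nontargeting siRNA and 0 with ZNF148 siRNA. For the wider list it gave 3 to 6, 26 to 35, 26 to 27, 37 to 38 and 28 to 30. With the replicate block, 0, 7, 6, 4 and 3 of the 10 genes were called with ZNF148 siRNA, and 5, 4, 0 and 0 between media, the same counts as without it. Scaling to the 75th percentile moved the median of all genes by up to 0.11.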
